A study of Homo sapiens with 6 samples.

Results

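TREX1 is a 3′ exonuclease anchored to the endoplasmic reticulum, and the experiment described here compared human cells in which TREX1 had been targeted with the first of 2 guide RNAs (KO-1) with control cells. The cells were CAL51, an established human triple-negative breast cancer line. The 4 libraries labelled control and KO-1, 2 of each, were chosen by their titles out of the 6 bulk libraries of the line, and the other 2 carry a second guide (KO-2). Per the series' design text the guides were delivered by lentiviral CRISPR v2 transduction, and no drug treatment is given for any of the 6 libraries. The control cells are not described further, and the sources used here do not say whether they carried a vector, a Cas9 or a guide. A deposited note speaks of knockout clones, and whether KO-1 was 1 clone or a pool is not stated. RNA was polyadenylated RNA, and the question was which transcripts differ in level between KO-1 and control.

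TREX1 degrades DNA that reaches the cytosol, and its loss is known to let that DNA activate cGAS and STING, which switch on type I interferon through IRF3 and inflammatory genes through NF-kB. DNA damage is a known trigger of the p53 pathway, in which p53 raises CDKN1A, the inhibitor of the cyclin-dependent kinases, and MDM2, the ligase that degrades p53. With cyclin-dependent kinases inhibited, RB family proteins stay bound to E2F factors and genes for DNA replication and mitosis are known to be held low. The gene lists below follow those roles: damage response, inflammation, interferon, replication and division, then adhesion and signalling.

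TREX1 itself was not analysed here, so the label of the knockout was not checked against its own gene. Reads recovered from the log2 CPM values (log2 of reads scaled to library size, with a small prior) came to 22941234 and 25785055 in control and to 16802681 and 18440036 in KO-1. Depth therefore moved with the groups, and its part in the results was not tested. On the first principal component, with 46.8% of the variance, the KO-1 libraries scored 22.4 and 21.5, the controls -27.9 and -26.4, and KO-2 2.35 and 8.12. KO-2 replicate 1 stood apart on the second component and affects only values of KO-2 and the pooled estimate of spread. Of 10 breast epithelial and receptor markers, 8 were measured, of which 4 were called higher in KO-1 and 1 lower (median log2 fold change 0.29). KRT8 and KRT19 were called in every fit without a control or KO-1 library, while calls of KRT18, EPCAM and ERBB2, the one called lower, were lost in some of them (adjusted p up to 0.0522, 0.315 and 0.0825). KRT8 lay between 9.57 and 9.93 log2 CPM and EPCAM between 8.03 and 8.30 over the 4 libraries. Of 20 leukocyte, endothelial and red cell markers, 5 could be tested and 0 were called, also without any control or KO-1 library. PTPRC stood at 0.29 ± 0.12 and passed the test without KO-2 replicate 1 (adjusted p = 0.0324) or KO-2 replicate 2 (adjusted p = 0.0315), with the 4 control and KO-1 libraries only (adjusted p = 0.0303) and with library medians set equal (adjusted p = 0.0472); CDH5 stood at -0.31 ± 0.14 and passed with those 4 libraries only (adjusted p = 0.0479). PTPRC lay between 3.95 and 4.35 log2 CPM, CDH5 between 3.54 and 4.05, and VWF between 2.03 and 2.15.

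KO-1 cells differed from control cells in 4089 of 13765 genes tested, which is 29.7% of them. In KO-1, 2005 genes were higher (14.6%) and 2084 were lower (15.1%). Calls were made with limma, the spread taken from all 6 libraries, where the Benjamini-Hochberg adjusted p was below 0.05. Most called differences were small: their median size was 0.43 on the log2 scale, 1152 reached 1.5-fold and 308 reached 2-fold (194 higher, 114 lower). The median log2 fold change over all genes tested was -0.0035. When the library medians were set equal, that median moved to 0.05 and the split became 2535 higher and 1653 lower, so 60.5% of the calls were higher in place of 49.0%. At an unadjusted p below 0.05 there were 5580 genes. Whether the replicates came from separate cultures is unstated, and the p-values reflect only how these libraries vary, which may be technical.

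The number of calls depended on each library. It was 1694 without control replicate 1, 1903 without control replicate 2, 1871 without KO-1 replicate 1 and 1852 without KO-1 replicate 2. In these fits the lone library of a group is assumed to vary like the other groups. Of the 4089 calls, 1308 (32.0%) were kept in all 4 of them, 664 higher and 644 lower. Genes named below as called were in that set unless an adjusted p without a library is given beside them. A value in brackets after a gene is its log2 fold change, KO-1 minus control, and rises and falls are given on the same scale with ± the standard error (SE). Where a list's count of calls is repeated with 1 library left out, the values follow the order control replicate 1, control replicate 2, KO-1 replicate 1, KO-1 replicate 2. The main fit is that of all 6 libraries on the deposited values. Its list counts of KO-1 against control below are to be read beside 14.6% higher and 15.1% lower over all genes. With 1 library left out or with library medians set equal, calls over all genes changed too, as given above. List counts from such fits are not to be read beside those shares.

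**Figure D1:**
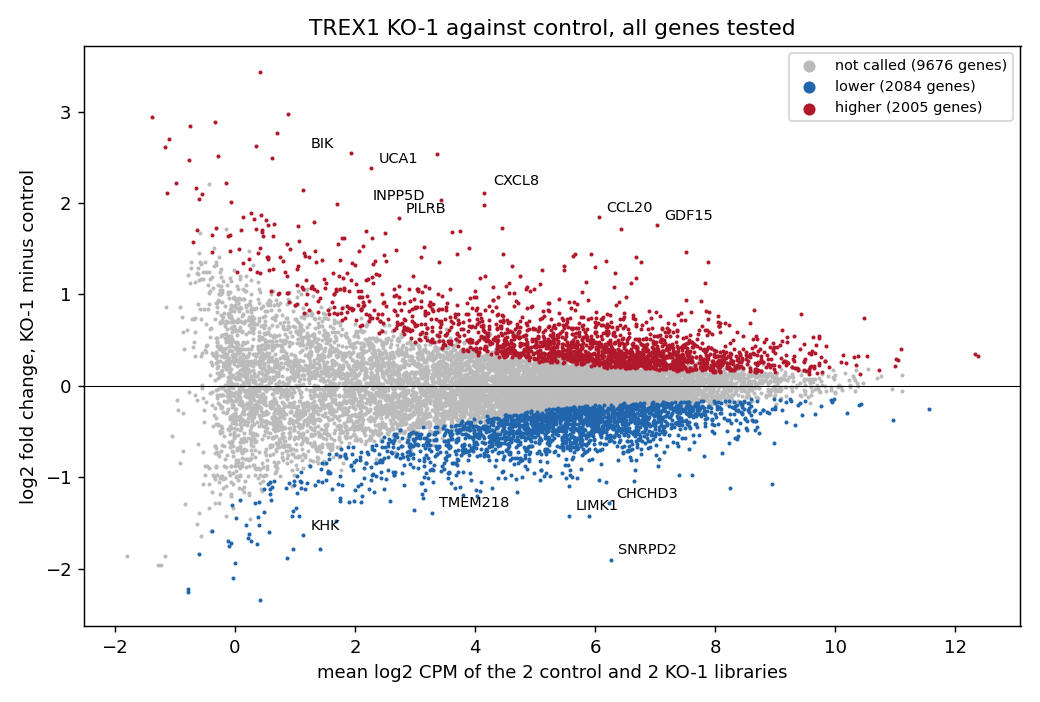
Log2 fold change of KO-1 minus control (vertical axis) against the mean log2 CPM of the 2 control and 2 KO-1 libraries (horizontal axis), 1 point per gene tested. Red points are the 2005 genes called higher, blue points the 2084 called lower and grey points the rest; most calls lie within 1 log2 unit of 0, and the named genes among the most changed lie beyond it.

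The highest and lowest genes were taken from those called that averaged 1 log2 CPM or more and whose KO-1 libraries lay apart from control. Among them BIK, a pro-apoptotic BH3-only protein (chr22:43110748-43129712, plus strand, hg38), had log2 CPM values of 0.72 and 0.60 in the control libraries and 3.25 and 3.16 in the KO-1 libraries. Its KO-1 libraries lay far above both controls, a 5.83-fold rise (log2 fold change 2.54 ± 0.20 SE, adjusted p = 1.75e-05). UCA1, a long intergenic RNA first described in bladder cancer, went from log2 CPM values of 0.93 and 1.24 in control to 3.37 and 3.55 in KO-1 (log2 fold change 2.38 ± 0.23). INPP5D, the lipid phosphatase SHIP1 best known from blood cells, went from log2 CPM values of 2.34 and 2.51 in control to 4.39 and 4.52 in KO-1 (log2 fold change 2.03 ± 0.14). No KO-1 library of these 3 genes overlapped a control library.

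Also among the 12 highest were CXCL8 (2.11), CXCL1 (1.98) and CCL20 (1.85), all chemokines, GDF15 (1.76), a stress cytokine, and FGFBP1 (1.79), a carrier of fibroblast growth factors. The tetraspanin TSPAN11 (1.99), the receptor PILRB (1.83) and the antisense transcript SHROOM3-AS1 (2.14) were in the same set. The strand setting of the counting is not given, so reads of SHROOM3-AS1 and of SHROOM3 cannot be told apart.

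By the same limits the steepest fall was in SNRPD2, a core Sm protein of the spliceosome (chr19:45687454-45692569, minus strand, hg38). Its log2 CPM was 7.23 and 7.19 in the control libraries and 5.31 and 5.30 in the KO-1 libraries, so the replicates of each group nearly coincided and KO-1 reached 0.267 of the control level (log2 fold change -1.90 ± 0.09, adjusted p = 1.42e-06). LIMK1, the kinase that phosphorylates cofilin (chr7:74082933-74122525, plus strand), had log2 CPM values of 6.33 and 6.21 in the control libraries and 4.85 and 4.86 in the KO-1 libraries (log2 fold change -1.42 ± 0.09). VAT1, a membrane protein of vesicles and mitochondria, went from log2 CPM values of 6.63 and 6.60 in control to 5.24 and 5.15 in KO-1 (log2 fold change -1.42 ± 0.08). CHCHD3, a subunit of the MICOS complex that shapes the inner mitochondrial membrane, went from log2 CPM values of 6.93 and 6.83 in control to 5.57 and 5.62 in KO-1 (log2 fold change -1.28 ± 0.09). KHK, the kinase that starts fructose breakdown, stood at -1.63 ± 0.31 from a level of 1.95 log2 CPM in both controls, a steeper fall than those of LIMK1, VAT1 and CHCHD3. These 5 genes belong to no common list used here.

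The other 7 of the 12 lowest were TMEM218 (-1.39), ADAM11 (-1.36), CREB3L4 (-1.28), RSKR (-1.26), VSIG10L (-1.48), ORAI3 (-1.42) and RADIL (-1.27). Calls of the last 3 depended on single libraries. The adjusted p of VSIG10L was 0.0668 with control replicate 1 left out and 0.0645 with KO-1 replicate 1 left out. That of ORAI3, a calcium channel subunit, was 0.108 with control replicate 1 left out, 0.132 with control replicate 2 left out and 0.174 with KO-1 replicate 2 left out, and its KO-1 libraries differed from each other (0.93 and -0.21 log2 CPM). RADIL reached 0.0566 with control replicate 1 left out, 0.0579 with control replicate 2 left out and 0.0716 with KO-1 replicate 2 left out.

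**Figure D2:**
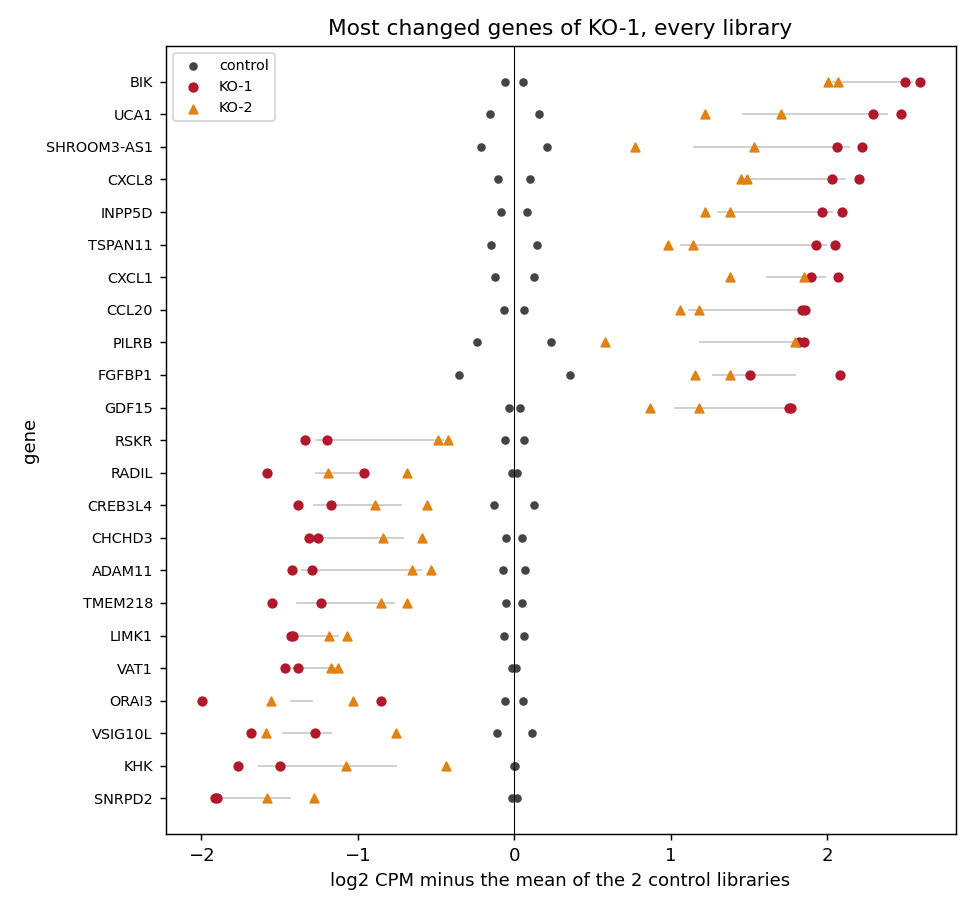
Log2 CPM minus the mean of the 2 control libraries (horizontal axis) for the most changed genes of KO-1 described here (rows), with every control (dark circles), KO-1 (red circles) and KO-2 (orange triangles) library shown. KO-1 points lie beyond about 1 log2 unit from control in all rows but for single libraries of ORAI3 and RADIL, and KO-2 points, which share the control libraries, lie on the same side as KO-1.

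Genes that p53 is known to switch on rose as a list. Of 43 p53 target genes tested, 37 were higher in KO-1 and 1 was lower, against 14.6% and 15.1% of all genes, and their median log2 fold change was 0.76. The higher count with 1 library left out was 32, 33, 29 and 34. In KO-1, 17 of the 43 were at least 2-fold higher. The list was chosen with earlier results of these data known, so its direction is not independent evidence.

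CDKN1A encodes p21, the inhibitor of cyclin-dependent kinases. Its log2 CPM was 6.82 and 6.75 in the control libraries and 8.27 and 8.24 in the KO-1 libraries, a 2.76-fold rise (log2 fold change 1.47 ± 0.07, adjusted p = 1.15e-06). MDM2, the ubiquitin ligase that limits p53, had log2 CPM values of 7.15 and 7.27 in the control libraries and 8.55 and 8.58 in the KO-1 libraries (log2 fold change 1.36 ± 0.06, adjusted p = 6.84e-07). In both genes the replicates of a group were far closer to each other than the groups were. Arrest and repair were further represented by BTG2 (1.40), GADD45A (1.44) and ZMAT3 (1.13), the stress sensors SESN1 (1.31) and SESN2 (1.23), and RRM2B (0.41), the p53-regulated small subunit of ribonucleotide reductase. PPM1D, the phosphatase that dampens the pathway, rose by 0.85 ± 0.09.

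Death receptors and pro-apoptotic BCL2 family members of the same list rose as well. FAS, the receptor of Fas ligand, had log2 CPM values of 3.15 and 3.14 in the control libraries and 4.64 and 4.67 in the KO-1 libraries (log2 fold change 1.51 ± 0.12, adjusted p = 1.78e-05). TNFRSF10B, the TRAIL receptor DR5, rose by 0.94 ± 0.08, BBC3 (PUMA) by 1.27 ± 0.16 and BAX by 0.59 ± 0.08. GDF15 had log2 CPM values of 6.12 and 6.19 in the control libraries and 7.92 and 7.91 in the KO-1 libraries (log2 fold change 1.76 ± 0.09). The single member called lower was DDB2, which finds UV lesions for excision repair, at -0.38 ± 0.11; its call was lost in each fit without a library (adjusted p between 0.101 and 0.188). XPC (-0.07) and ANKRA2 (0.05) were among the 5 that did not pass the test.

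Across the other BCL2 family members and caspases listed, calls were near the share over all genes. BBC3 and BAX, given above, were counted with the p53 target genes and not in this list. Of 29, 6 were higher and 5 lower, beside 14.6% and 15.1% of all genes, with a median of 0.08. Besides BIK, the members called higher in every fit with a library left out were BMF (0.59), another BH3-only protein, BIRC3 (0.66), an inhibitor of apoptosis, and CASP2 (0.35). With 1 library left out, the higher counts were 4, 5, 5 and 4 and the lower counts 0, 0, 1 and 0. BCL2 (-0.00), MCL1 (-0.15), BAK1 (0.08) and CASP8 (0.10) did not pass the test.

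**Figure D3:**
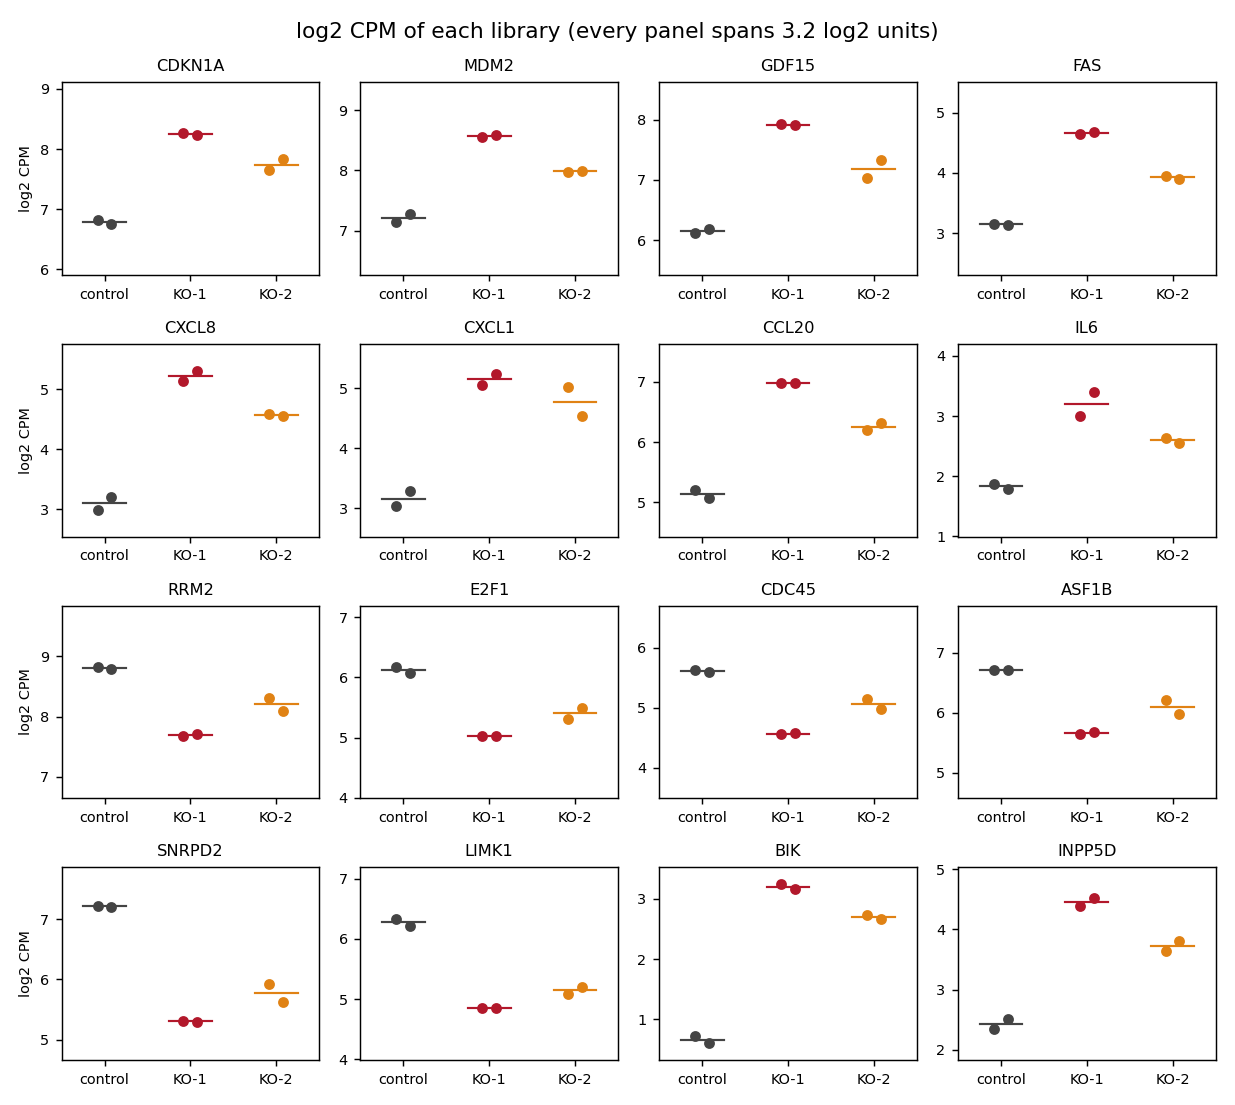
Log2 CPM (vertical axes, each spanning 3.2 log2 units) of 16 genes in the 2 control, 2 KO-1 and 2 KO-2 libraries, with a point per library and a line at each group mean. From the top, rows show p53 targets, chemokines and IL6, replication genes, and 4 of the most changed genes; in every panel the KO-1 points are separate from the control points and the replicates of KO-1 lie closer to each other than to either control.

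Inflammatory genes under NF-kB control rose in KO-1. Of 27 NF-kB target genes, 21 were higher and 0 lower, with a median log2 fold change of 0.73 (18, 18, 17 and 18 higher with 1 library left out, and 0 lower in each). The secreted factors moved most. CXCL8, the neutrophil chemokine interleukin 8 (chr4:73740506-73743716, plus strand, hg38), had log2 CPM values of 3.0 and 3.2 in the control libraries and 5.13 and 5.30 in the KO-1 libraries, a 4.33-fold rise (log2 fold change 2.11 ± 0.12, adjusted p = 3.02e-06). CCL20, a ligand of CCR6, had log2 CPM values of 5.20 and 5.07 in the control libraries and 6.99 and 6.97 in the KO-1 libraries (log2 fold change 1.85 ± 0.08, adjusted p = 6.84e-07). CXCL1 rose by 1.98 ± 0.16, although reads of CXCL1, CXCL2 and CXCL3 may be shared because the genes are near-identical. IL6 had log2 CPM values of 1.87 and 1.80 in the control libraries and 3.0 and 3.40 in the KO-1 libraries (log2 fold change 1.37 ± 0.20, adjusted p = 0.000628), with its KO-1 libraries further apart than its controls.

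CCL2 (1.56), LIF (1.31) and CSF1 (0.82), which act on monocytes, stem cells and macrophages, were higher too. IL1A stood at 1.76 ± 0.40, but its adjusted p rose to 0.0771 with control replicate 2 left out, 0.0653 with KO-1 replicate 1 left out and 0.0653 with KO-1 replicate 2 left out. The feedback genes of the pathway were among the members that rose. NFKBIA, the inhibitor that retains NF-kB in the cytoplasm, had log2 CPM values of 6.94 and 7.03 in the control libraries and 7.74 and 7.78 in the KO-1 libraries (log2 fold change 0.77 ± 0.06). TNFAIP3 (A20) rose by 0.72 ± 0.10, TNIP1 by 0.64 ± 0.06 and NFKB2 by 0.54 ± 0.08. ICAM1, an adhesion molecule for leukocytes, rose by 0.94 ± 0.08. NFKB1 (0.14), RELB (0.20) and TRAF1 (-0.23) did not pass the test.

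The 250 bases upstream of the RefSeq start (GRCh38.p14) of 4 of these genes are shown because these 4 rose and hold a motif there. The motif was searched as GGNNNTTCC on both strands, and capitals mark its matches; such a match can overlap the TEAD motif described further on. The windows are CXCL8 (chr4:73740319-73740568, plus strand), CXCL1 (chr4:73869143-73869392, plus strand), IL6 (chr7:22726950-22727199, plus strand) and NFKBIA (chr14:35404750-35404999, minus strand).
CXCL8: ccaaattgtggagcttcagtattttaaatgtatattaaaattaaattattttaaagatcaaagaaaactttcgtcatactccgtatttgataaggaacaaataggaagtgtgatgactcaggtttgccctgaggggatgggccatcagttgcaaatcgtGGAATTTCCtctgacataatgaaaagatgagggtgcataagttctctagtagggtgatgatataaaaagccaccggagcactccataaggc
CXCL1: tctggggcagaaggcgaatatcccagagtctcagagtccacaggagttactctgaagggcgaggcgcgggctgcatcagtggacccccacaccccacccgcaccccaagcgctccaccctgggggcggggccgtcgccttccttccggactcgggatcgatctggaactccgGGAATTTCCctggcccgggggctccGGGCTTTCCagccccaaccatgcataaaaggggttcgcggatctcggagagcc
IL6: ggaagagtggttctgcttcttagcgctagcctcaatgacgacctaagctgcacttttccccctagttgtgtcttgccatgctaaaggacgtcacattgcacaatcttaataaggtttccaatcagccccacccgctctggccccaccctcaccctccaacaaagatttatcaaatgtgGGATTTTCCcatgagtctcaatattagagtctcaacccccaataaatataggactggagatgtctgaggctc
NFKBIA: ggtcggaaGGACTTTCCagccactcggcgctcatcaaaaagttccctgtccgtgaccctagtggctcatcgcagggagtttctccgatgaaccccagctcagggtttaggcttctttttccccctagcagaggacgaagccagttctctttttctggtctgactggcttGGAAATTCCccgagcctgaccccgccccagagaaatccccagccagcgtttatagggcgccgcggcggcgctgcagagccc
Of the 16 NF-kB targets called higher that had a window in the promoter table, 12 (75.0%) held the motif, and over all 21 targets tested that had one the number was 14 (66.7%). The share was 20.1% over the 10789 genes tested that had a window and 17.1% over all 27305 windows. A match is a run of letters and not a bound site. The list was made of NF-kB targets, so a high share of this motif comes with the list and does not bear on KO-1.

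AP-1 factors and immediate early genes, which respond to growth factor and stress kinases, were higher as well. Of 29 tested, 19 were higher and 1 lower, with a median of 0.40; the higher counts fell to 12, 12, 12 and 13 with 1 library left out. FOSL1, the Fos family member FRA-1, had log2 CPM values of 2.74 and 2.80 in the control libraries and 4.46 and 4.45 in the KO-1 libraries (log2 fold change 1.69 ± 0.13, adjusted p = 1.54e-05). JUN rose by 0.62 ± 0.07, JUNB by 0.77 ± 0.12, FOS by 0.73 ± 0.12 and EGR1 by 1.05 ± 0.16. DUSP5, a phosphatase that inactivates ERK in the nucleus, rose by 0.69 ± 0.09. ATF3 stood at 1.21 ± 0.33, and its adjusted p was 0.102 with control replicate 1 left out, 0.0837 with control replicate 2 left out, 0.0771 with KO-1 replicate 1 left out and 0.151 with KO-1 replicate 2 left out. None of 22 windows of this list held the AP-1 letters TGACTCA, which says only that they are not in these 250 bases.

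Interferon-stimulated genes were called about as often as all genes. Of 38 tested, 31.6% were called, beside 29.7% of all genes. Of the 38, 9 were higher and 3 lower, beside 14.6% and 15.1% of all genes, and the median log2 fold change was 0.09. In 29 of the 38 (76.3%) the 95% interval of the log2 fold change ended under 1. That share was not taken over all genes. Of the 4089 genes called, 308 reached 2-fold in either direction, a count of estimates and not of intervals. Whether this bound sets the list apart from all genes was not tested. ISG15, a ubiquitin-like modifier, had log2 CPM values of 3.14 and 3.27 in the control libraries and 3.32 and 2.93 in the KO-1 libraries (log2 fold change -0.08 ± 0.20, adjusted p = 0.794); its groups overlapped. IFIT1 stood at 0.16 ± 0.17 (adjusted p = 0.517, interval -0.22 to 0.55) and MX1, at under 1 log2 CPM in each library, at -0.09 ± 0.34 (interval -0.85 to 0.66).

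The interferon-stimulated genes called in every fit with a library left out were SP100 (0.78 ± 0.12) and DTX3L (0.41 ± 0.07), which were higher, and TRIM5 (-0.86 ± 0.12) and OAS3 (-0.65 ± 0.11), which were lower. SP100 is a nuclear body protein, DTX3L a ubiquitin ligase of the PARP9 complex, TRIM5 a restriction factor of retroviruses and OAS3 a sensor of double-stranded RNA. IFIT2 stood at 1.06 ± 0.26, with an adjusted p of 0.120 with control replicate 1 left out and 0.0946 with KO-1 replicate 2 left out. IFIT3 stood at 0.62 ± 0.22 (adjusted p = 0.0538), and its KO-1 libraries lay at 3.42 and 4.22 log2 CPM; without KO-1 replicate 1 it passed the test (adjusted p = 0.0117). The counts of higher and lower genes without a library were 3, 5, 6 and 4 higher and 2, 2, 2 and 2 lower.

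Sensors of nucleic acids barely moved as a list: 4 of 25 were higher and 5 lower, with a median of 0.02 that changed sign to -0.02 on recovered reads, and with library medians set equal 4 were higher and 2 lower; with 1 library left out, 1, 1, 2 and 1 higher and 0, 1, 0 and 1 lower. STING1, the adaptor of cGAS, had log2 CPM values of 6.47 and 6.51 in the control libraries and 6.71 and 6.81 in the KO-1 libraries (log2 fold change 0.27 ± 0.08, adjusted p = 0.0240), a call lost without any of the 4 libraries (adjusted p 0.0796 to 0.193). DHX9, a helicase that binds DNA and RNA, rose by 0.28 ± 0.05 and was the only member called in all 4 of those fits. TBK1, the kinase downstream of STING, stood at 0.08 ± 0.09 (adjusted p = 0.503). For the sensors and for the list that follows, the shares over all genes in the main fit were 14.6% higher and 15.1% lower. Of 27 genes of MHC class I and peptide loading, 5 were higher and 1 lower (4, 4, 4 and 4 higher without a library). TAP1, which helps carry peptides into the endoplasmic reticulum, rose by 0.87 ± 0.10, MICB, a ligand of the NKG2D receptor, by 0.69 ± 0.07 and HLA-C by 0.54 ± 0.08. Reads of HLA genes may be shared between them.

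Other nucleases, and genes mutated in interferonopathies, were called lower more often than higher. Of 28, 11 were lower and DNASE1 (0.55; adjusted p 0.0946 with control replicate 1 left out, 0.0576 with KO-1 replicate 1 left out and 0.0554 with KO-1 replicate 2 left out) was higher, beside 15.1% and 14.6% of all genes, with a median of -0.19. The lower count was 3, 3, 4 and 5 with 1 library left out. DNA2, a nuclease and helicase of DNA end resection, had log2 CPM values of 5.97 and 5.97 in the control libraries and 5.37 and 5.22 in the KO-1 libraries (log2 fold change -0.67 ± 0.08, adjusted p = 0.000282). ATAD3A, a mitochondrial membrane ATPase, fell by 0.72 ± 0.08 and POLA1, the catalytic subunit of the primase polymerase, by 0.54 ± 0.10 on the log2 scale. SAMHD1, which degrades deoxynucleotides, stood at -0.35 ± 0.09 (adjusted p 0.0974 with control replicate 1 left out, 0.108 with control replicate 2 left out and 0.123 with KO-1 replicate 1 left out).

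Genes of DNA replication fell in KO-1. Of 31 genes of the replicative helicase and its licensing, 19 were lower and 2 higher (median -0.31). Of 30 replicative polymerases, clamp and chromatin assembly genes, 21 were lower and 0 higher (median -0.39). Of 30 genes of deoxynucleotide supply, 16 were lower and 1 higher (median -0.26). With 1 library left out the lower counts were 12, 14, 12 and 14 for the first list, 15, 10, 12 and 13 for the second and 10, 11, 12 and 9 for the last. In bulk RNA, fewer cells in S phase and less of these transcripts per cell cannot be told apart.

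RRM2, the S phase subunit of ribonucleotide reductase, had log2 CPM values of 8.82 and 8.79 in the control libraries and 7.67 and 7.70 in the KO-1 libraries (log2 fold change -1.12 ± 0.07, adjusted p = 3.93e-06). CDC45, which joins the MCM ring in the active helicase, had log2 CPM values of 5.63 and 5.59 in the control libraries and 4.57 and 4.58 in the KO-1 libraries (log2 fold change -1.04 ± 0.09, adjusted p = 3.79e-05). ASF1B, a histone chaperone at replication forks, had log2 CPM values of 6.72 and 6.71 in the control libraries and 5.64 and 5.67 in the KO-1 libraries (log2 fold change -1.06 ± 0.09, adjusted p = 1.97e-05). All 3 were at about the same level in both replicates of a group and fell to 0.462, 0.488 and 0.481 of control. Of the MCM subunits, MCM6 (-0.66), MCM7 (-0.48), MCM4 (-0.45) and MCM5 (-0.42) fell; MCM3 (-0.26) and MCM2 (-0.21) were called as well, but not in all fits with a library left out. The adjusted p of MCM2 was 0.149 with control replicate 1 left out, 0.107 with control replicate 2 left out, 0.110 with KO-1 replicate 1 left out and 0.106 with KO-1 replicate 2 left out, and that of MCM3 was 0.0505 with control replicate 1 left out and 0.0527 with KO-1 replicate 1 left out.

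The licensing factor CDC6 fell by 0.58 ± 0.09, the GINS subunit GINS2 by 0.52 ± 0.09 and the kinase CDC7 by 0.47 ± 0.08 on the log2 scale. The chromatin assembly subunits CHAF1A (-0.55) and CHAF1B (-0.64), the clamp loader subunit RFC2 (-0.61) and the fork protection proteins TIMELESS (-0.44) and CLSPN (-0.61) fell too. In deoxynucleotide supply, SHMT1 (-0.74), which makes one-carbon units, CTPS2 (-0.51), IMPDH2 (-0.46), DTYMK (-0.47) and TK1 (-0.34) fell. PCNA, the sliding clamp, stood at -0.18 ± 0.07 (adjusted p = 0.0689) and CDT1 at -0.08 ± 0.07 (adjusted p = 0.402). ORC3, an origin recognition subunit, rose by 0.38 ± 0.07.

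E2F1, the activating E2F factor (6.17 and 6.07 log2 CPM in control, 5.02 and 5.02 in KO-1), fell to 0.467 of control (log2 fold change -1.10 ± 0.09, adjusted p = 1.97e-05). E2F8 (-0.69), E2F2 (-0.65) and RBL1 (-0.53), the RB relative p107, fell with it, while CDK6, a G1 kinase, rose by 1.03 ± 0.12. Over the 33 E2F factors, RB family genes, cyclins and kinases, 14 were lower and 6 higher, which became 1, 3, 1 and 3 higher and 6, 8, 8 and 8 lower with 1 library left out. Cyclin E2 (CCNE2, -0.66) was called, but its adjusted p was 0.0835 with control replicate 1 left out, 0.0509 with KO-1 replicate 1 left out and 0.0596 with KO-1 replicate 2 left out. CDK1 (-0.06), CDK2 (-0.05), CDK4 (-0.01) and CCNB1 (-0.10) did not pass the test.

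The upstream windows of E2F1 (chr20:33686386-33686635, minus strand) and MCM6 (chr2:135876444-135876693, minus strand) are shown because both genes fell and hold the E2F letters. These were searched on both strands as TTTCCCGC or TTTGGCGC. Capitals mark these matches and, at the start of the MCM6 window, a match of the CHR letters TTCGAA described below.
E2F1: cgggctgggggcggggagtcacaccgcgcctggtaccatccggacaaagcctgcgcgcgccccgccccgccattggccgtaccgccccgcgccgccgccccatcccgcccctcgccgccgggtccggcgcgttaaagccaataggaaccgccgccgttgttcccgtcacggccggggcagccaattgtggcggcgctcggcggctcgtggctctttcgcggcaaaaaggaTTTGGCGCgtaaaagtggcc
MCM6: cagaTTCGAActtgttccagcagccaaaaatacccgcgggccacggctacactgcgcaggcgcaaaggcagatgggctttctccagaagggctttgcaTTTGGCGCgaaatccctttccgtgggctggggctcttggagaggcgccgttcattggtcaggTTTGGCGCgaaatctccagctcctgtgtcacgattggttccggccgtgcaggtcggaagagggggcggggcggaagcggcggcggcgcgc
Among genes of the 3 replication lists called lower, 8 of 47 windows (17.0%) held the E2F letters, against 3.10% of the windows of all genes tested. Over all members of those lists tested the share was 13 of 79 (16.5%), and p53 target genes, most of which rose, held them in 5 of 34 (14.7%). The windows of RRM2, CDC45 and CDC6 held no match to these letters, which says nothing of other sites.

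Genes of mitosis and of homologous recombination were lower as well. Of 45 genes of the mitotic spindle and kinetochore, 23 were lower and 1 higher (median -0.21; 12, 13, 13 and 12 lower with 1 library left out). AURKA, the spindle pole kinase, had log2 CPM values of 6.96 and 6.96 in the control libraries and 6.32 and 6.22 in the KO-1 libraries (log2 fold change -0.69 ± 0.08, adjusted p = 0.000159). ZWINT (-0.92), CENPM (-0.83) and SPC24 (-0.71), all at the kinetochore, fell, as did CDC20 (-0.53) and TOP2A (-0.43). PLK1 (-0.05 ± 0.07, adjusted p = 0.610), UBE2C (-0.06) and CENPF (0.12) did not pass the test. In the upstream windows of this list, the CHR letters (TTTGAA or TTCGAA, both strands) were in 18 of 37 (48.6%), against 9.36% over all genes tested, and the letters CCAAT in 73.0% against 35.0%.

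Among 34 homologous recombination and Fanconi anaemia genes, 18 were lower and 1 higher, with a median of -0.39 (10, 12, 12 and 15 lower with 1 library left out). XRCC3, a recombination factor, had log2 CPM values of 5.26 and 5.27 in the control libraries and 4.38 and 4.40 in the KO-1 libraries (log2 fold change -0.87 ± 0.11, adjusted p = 0.000280). BRCA1 fell from log2 CPM values of 6.70 and 6.68 in control to 6.16 and 5.91 in KO-1 (log2 fold change -0.66 ± 0.10), and RAD51AP1 (-0.56), FANCL (-0.81), FANCA (-0.50), FANCI (-0.40) and BRIP1 (-0.44) fell too. BRCA2 stood at -0.15 ± 0.13 (adjusted p = 0.444) and PALB2 at -0.02 ± 0.10.

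In the ATR checkpoint list, 13 of 33 were lower and 2 higher (median -0.17; 7, 6, 8 and 6 lower with 1 library left out). RPA1, the large subunit of the protein that coats single-stranded DNA, had log2 CPM values of 7.49 and 7.45 in the control libraries and 6.71 and 6.63 in the KO-1 libraries (log2 fold change -0.81 ± 0.08, adjusted p = 4.92e-05), while RPA2 (-0.08) and RPA3 (-0.17) did not pass the test. RHNO1, which acts in ATR activation, fell by 0.54 ± 0.09 and WEE1, the kinase that restrains CDK1, rose by 0.35 ± 0.06. CHEK2 stood at -0.76 ± 0.16 (adjusted p 0.0635 with KO-1 replicate 2 left out). ATRIP, the partner of ATR, whose annotated exons overlap those of TREX1, had log2 CPM values of 4.72 and 4.79 in the control libraries and 4.42 and 4.26 in the KO-1 libraries (log2 fold change -0.41 ± 0.11, adjusted p = 0.0153); the adjusted p was 0.0872 with control replicate 1 left out, 0.136 with control replicate 2 left out and 0.130 with KO-1 replicate 2 left out. Of 22 measured genes next to TREX1 at 3p21, 8 were lower and 3 higher, beside 15.1% and 14.6% of all genes (1, 0, 0 and 0 higher and 2, 3, 5 and 2 lower with 1 library left out), with PRKAR2A (-0.44) and UQCRC1 (-0.37) called in all 4 fits with a library left out.

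**Figure D4:**
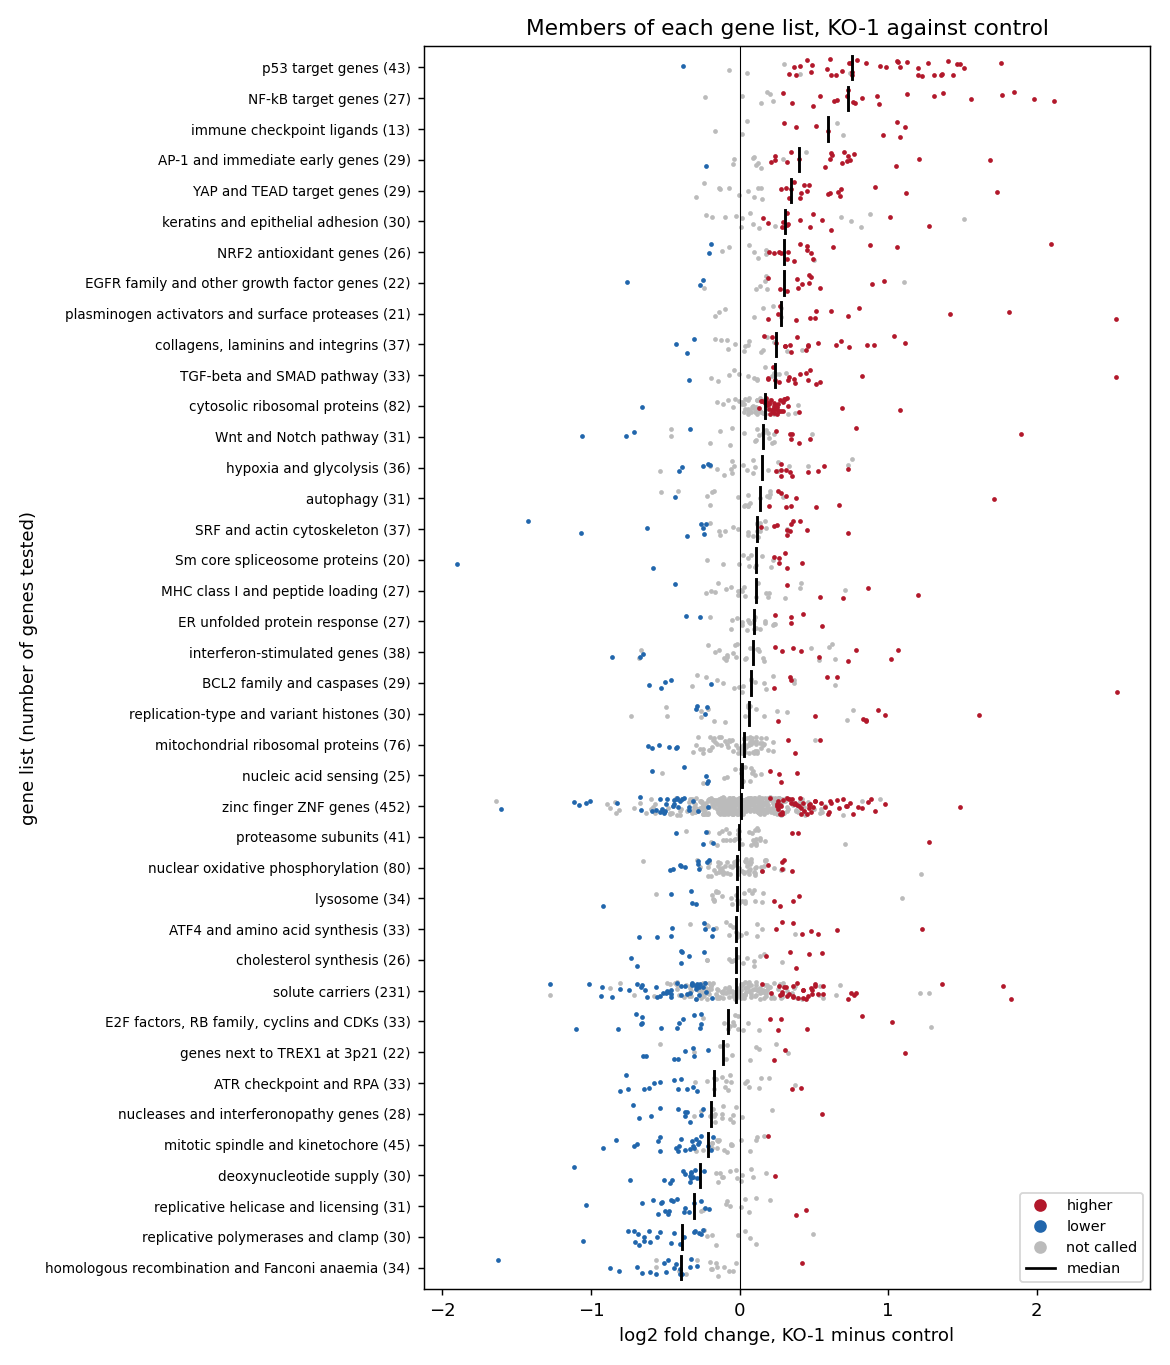
Log2 fold change of KO-1 minus control (horizontal axis) for every tested member of 40 gene lists (rows, with the number of members tested), in red where called higher, blue where called lower and grey where not called; the black bar is the list median. Lists are ordered by median, from p53 target genes at 0.76 to homologous recombination at -0.39, and the lists of the marker check are left out.

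Histone genes are also tied to S phase. Of 30 replication-type and variant histones, 8 were higher and 4 lower, beside 14.6% and 15.1% of all genes (5, 6, 6 and 6 higher and 1, 1, 1 and 1 lower with 1 library left out), with H2BC12 at log2 CPM values of 3.93 and 3.87 in the control libraries and 4.85 and 4.90 in the KO-1 libraries (log2 fold change 0.98 ± 0.11, adjusted p = 0.000118). H2BC11 (1.61), H2AC6 (0.85), H2BC5 (0.85) and H1-2 (0.50) rose, and the variant H2AZ2 (-0.30) fell. Replication-type histone messages mostly lack a poly(A) tail, and the library was made from polyadenylated RNA, so these values count only the tailed transcripts; the near-identical copies may also share reads.

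Targets of YAP and TEAD, which answer to cell tension and contact, were higher: 18 of 29 rose, 0 fell, and the median was 0.35 (14, 17, 13 and 15 higher with 1 library left out). ANKRD1 had log2 CPM values of 3.53 and 3.62 in the control libraries and 5.25 and 5.37 in the KO-1 libraries, a 3.32-fold rise (log2 fold change 1.73 ± 0.11, adjusted p = 6.42e-06). The matricellular proteins CCN1 and CCN2 rose by 0.68 ± 0.05 and 0.67 ± 0.05, the receptor AXL by 1.12 ± 0.15, and YAP1 and its partner WWTR1 (TAZ) by 0.31 ± 0.06 and 0.41 ± 0.06. In their upstream windows the TEAD letters GGAATG were in 6 of 21 (28.6%), against 9.43% over all genes tested. This list was likewise made of known targets, so that share does not bear on KO-1.

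Cytoskeletal genes were split. Of 37 genes of SRF and the actin cytoskeleton, 11 were higher and 8 lower; with 1 library left out, 8, 9, 9 and 9 higher and 4, 6, 6 and 3 lower. LIMK2 rose by 0.73 ± 0.12 while LIMK1 fell by 1.42 ± 0.09, and MYH9 rose by 0.32 ± 0.06 while MYH10, the other widely expressed nonmuscle myosin heavy chain, fell by 1.07 ± 0.07 on the log2 scale. MYH10 went from log2 CPM values of 9.43 and 9.54 in control to 8.5 and 8.34 in KO-1. ACTB (0.35) and ACTG1 (0.41), the cytoplasmic actins, rose, and CFL2 (-0.62), a cofilin, fell.

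In the TGF-beta and SMAD list 17 of 33 were higher and 1 lower (median 0.24; 9, 11, 11 and 10 higher with 1 library left out). ID1 and ID3, inhibitors of basic helix-loop-helix factors, rose by 0.54 ± 0.05 and 0.83 ± 0.06, SMAD3 by 0.51 ± 0.06 and the ligand TGFB1 by 0.46 ± 0.07. Plasminogen activators and surface proteases had 13 of 21 higher and 0 lower (9, 10, 10 and 7 with 1 library left out). PLAU, the urokinase activator, had log2 CPM values of 4.82 and 5.03 in the control libraries and 6.26 and 6.42 in the KO-1 libraries (log2 fold change 1.42 ± 0.10, adjusted p = 7.46e-06). SPINT2 (0.73), TIMP1 (0.51), TIMP2 (0.48) and MMP14 (0.51) rose; MMP1 stood at 1.81 ± 0.38 (adjusted p 0.0762 with KO-1 replicate 2 left out).

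Of 22 genes of the EGFR family, other growth factor receptors, their ligands and regulators, 12 were higher and 3 lower (7, 7, 6 and 7 higher with 1 library left out). The ligand EREG rose by 0.89 ± 0.10, PDGFA by 0.97 ± 0.17 and the receptor MET by 0.46 ± 0.06. ERBB3, the kinase-impaired partner of ERBB2, went from log2 CPM values of 4.17 and 4.40 in control to 3.56 and 3.49 in KO-1 (log2 fold change -0.76 ± 0.13, adjusted p = 0.00192), and EGFR itself stood at 0.17 ± 0.09 (adjusted p = 0.166).

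Matrix and epithelial genes were more often higher than lower. Of 37 collagens, laminins and integrins, 19 were higher and 3 lower (10, 12, 10 and 14 higher with 1 library left out), among them LAMC1 (0.74), ITGB1 (0.45), ITGB8 (0.65) and COL17A1 (0.91); LAMB2 fell by 0.43 ± 0.07. Of 30 keratins and epithelial adhesion genes, 14 were higher and 0 lower (7, 6, 6 and 7). CLDN1, a tight junction claudin, went from log2 CPM values of 5.55 and 5.55 in control to 6.08 and 6.25 in KO-1 (log2 fold change 0.62 ± 0.08), and KRT8 (0.32), KRT19 (0.41) and PERP (0.47), a desmosome protein and p53 target, rose. CDH1 (0.29 ± 0.12, adjusted p = 0.0969) and CDH2 (0.09), the epithelial and neural cadherins, did not pass the test.

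Of 13 immune checkpoint ligands measured, 8 were higher and 0 lower, with a median of 0.59 (7, 6, 6 and 6 with 1 library left out). VSIR, which encodes VISTA, had log2 CPM values of 4.48 and 4.58 in the control libraries and 5.67 and 5.62 in the KO-1 libraries (log2 fold change 1.11 ± 0.10, adjusted p = 3.79e-05). TNFSF9 (4-1BB ligand) rose by 1.08 ± 0.15, VTCN1 (B7-H4) by 1.06 ± 0.16, CD276 (B7-H3) by 0.51 ± 0.06, PVR by 0.30 ± 0.06 and NT5E (CD73), which makes adenosine, by 0.59 ± 0.06. CD47 stood at -0.16 ± 0.06 (adjusted p = 0.0633).

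Antioxidant genes under NRF2 had 16 of 26 higher and 2 lower (median 0.30), but only 9, 8, 8 and 6 higher with 1 library left out. HMOX1, haem oxygenase, went from log2 CPM values of 3.77 and 3.81 in control to 4.72 and 4.61 in KO-1 (log2 fold change 0.88 ± 0.15, adjusted p = 0.00168). The ferritin chains FTH1 and FTL rose by 0.45 ± 0.06 and 0.33 ± 0.05, and GCLM, which supports glutathione synthesis, by 0.36 ± 0.07. NQO1 stood at -0.12 ± 0.05 (adjusted p = 0.104). Reads of AKR1C1, AKR1C2 and AKR1C3 may be shared, and their single values are not given, but the genes remain in the counts and median of the list. In the hypoxia and glycolysis list 11 of 36 were higher and 5 lower (5, 5, 7 and 4 higher and 2, 2, 2 and 2 lower with 1 library left out), with the glucose transporter SLC2A1 at log2 CPM values of 7.53 and 7.49 in the control libraries and 8.23 and 8.25 in the KO-1 libraries (log2 fold change 0.73 ± 0.06) and GPI (-0.39) and PFKL (-0.40) lower. In the autophagy list 10 of 31 were higher and 1 lower (5, 4, 5 and 4 higher with 1 library left out), and DRAM1, a lysosomal protein that p53 is known to induce, rose by 1.71 ± 0.09.

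KO-2 was compared with KO-1 directly, in the same fit. The test of KO-2 minus KO-1 called 157 genes (1.14% of those tested), 46 higher and 111 lower in KO-2. Without KO-1 replicate 1 or KO-1 replicate 2 it called 0 genes in limma (1286 and 1344 at an unadjusted p below 0.05), without KO-2 replicate 1 it called 737 and without KO-2 replicate 2 it called 3170. The comparisons of each guide with control share the control libraries, so their values are only set side by side here. Against control, KO-1 and KO-2 stood at 1.47 and 0.96 for CDKN1A, 1.51 and 0.78 for FAS, 2.11 and 1.47 for CXCL8, -1.12 and -0.60 for RRM2, -1.10 and -0.71 for E2F1, -1.90 and -1.43 for SNRPD2 and -1.42 and -1.12 for LIMK1. The list medians were 0.76 and 0.52 for p53 target genes and 0.73 and 0.50 for NF-kB target genes.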

How the data were processed

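Bulk polyadenylated RNA of CAL51 cells was sequenced in 2 control, 2 KO-1 and 2 KO-2 libraries. Per the submitters' processing notes, fastp, STAR 2.7, featureCounts from Subread 2.0 and edgeR were used with hg38; the sources used here do not give the annotation, strand setting or gene filter. The authors deposited log2 CPM for 14788 genes. With the prior of 0.102 CPM removed, 100% of the values checked were whole reads at a tolerance of 0.1 reads. Values with high read numbers were not checked. Depth was 13222933 to 25785055 reads a library. Replicates differed by more than sampling noise (chi-square per degree of freedom 3.68, 3.01 and 8.54), so none were merged. The authors' own fold change table was not used.

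Genes with log2 CPM of at least 0 in at least 2 of 6 libraries were tested (13765 kept, 1023 removed). To the deposited log2 CPM, limma 3.58.1 fitted 1 mean per group over all 6 libraries (R 4.3.3), with a mean-variance trend, 3 residual and 8.02 prior degrees of freedom. Adjustment was by Benjamini-Hochberg across every gene tested, and genes under 0.05 were called. Errors after ± are limma standard errors (2 libraries a group); fold changes include the prior and understate low genes. Alternatives were single libraries left out, fewer libraries, no trend, other scalings, pseudocount and filters, a replicate block, voom on recovered reads, and a minimum fold.

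Members and lists were chosen with earlier results of these data known. Named were the 12 highest and 12 lowest called genes whose mean log2 CPM was 1 or more and whose libraries were separate, without clone-based names, up to 4 members of each list with the smallest p, and 5 genes in each direction for KO-2 minus KO-1. Further members were named after their values were seen, and some genes that the rule named are not reported here. Positions are from GENCODE v29 (13108 of the tested names matched, 95.2%) and upstream sequences from RefSeq GRCh38.p14 (10789 matched, 78.4%); the 50 bases after each start were not used. The script was tested on simulated data.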

Additional observations from a re-analysis of the deposited data

Results flagged for a closer look

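Among the 187 genes that the rule for named genes picked, 37 differed between KO-2 and KO-1 at an adjusted p below 0.05 in limma, beside 1.14% of all genes tested: 23 were lower in KO-2 and 14 higher. All 37 were also called without KO-2 replicate 1, but without either KO-1 library 0 genes were called, so these calls need both KO-1 libraries. The 37 include 10 genes that were named because they differed most between KO-2 and KO-1. The others were picked by their values in KO-1 against control, which uses the same KO-1 libraries. Extreme KO-1 values were thus favoured, and in 33 of the 37 KO-2 lay between control and KO-1. The share among the picked genes therefore cannot be compared with the 1.14% of all genes. The values below are log2 fold changes of KO-2 minus KO-1.

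Lower in KO-2 were some p53 targets (10 of 43 differed), with -0.51 for CDKN1A, -0.58 for MDM2, -0.74 for GDF15 and -0.47 for SESN1. Outside the rule, FAS (-0.73), BTG2 (-0.56), GADD45A (-0.63) and ZMAT3 (-0.50) differed too, and were chosen after their values were seen. DRAM1, which p53 also induces, had -0.60. Of inflammatory and immediate early genes the difference was -0.73 for CCL20, -0.65 for CXCL8, -0.88 for DUSP5 and -0.38 for JUN. The YAP targets and TGF-beta responsive genes had -0.46 for CCN1, -0.40 for CCN2, -0.26 for FSTL1 and -0.30 for ID3. Extracellular and receptor genes had -0.75 for PLAU, -1.05 for TIMP3, -0.98 for HBEGF and -1.33 for OXTR. INPP5D had -0.73, TCIM -1.05 and the cardiac actin ACTC1 -0.94. Of transport and metabolism genes the difference was -0.36 for SLC7A5, -0.46 for SLC30A1 and -0.43 for MSMO1.

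Of replication and mitosis genes called higher in KO-2, the difference was 0.51 for RRM2, 0.49 for CDC45, 0.44 for ASF1B, 0.26 for MCM7, 0.37 for DTYMK and 0.44 for AURKA. Between the guides, 3 of 31 helicase and licensing genes and 1 of 30 polymerase and clamp genes differed. So did 2 of 30 genes of deoxynucleotide supply and 3 of 45 mitotic genes, beside 1.14% of all genes tested. The lists were chosen with earlier results of these data known. Their shares, that of the p53 targets included, therefore cannot be compared with the 1.14% either. Over all genes, the 46 called higher in KO-2 became 2 with the KO-1 and KO-2 libraries only and 19 with the replicate block. ERBB3 had 0.76; its KO-2 libraries lay at 4.40 and 4.17 log2 CPM and its controls at 4.17 and 4.40. CHCHD3 had 0.57, SNRPD2 0.47, ASMTL 0.50, PHF20 0.49 and the glycolytic enzyme GPI 0.30. SLC27A4, a fatty acid transport protein, had 0.35, and SLC2A4RG, a regulator named after a glucose transporter and not itself a carrier, 0.36. TIMP3 and HBEGF were not called in KO-1 against control (0.10 and 0.18), and stood at -0.95 and -0.80 in KO-2.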

How the results depend on the processing

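Over the alternatives run, 0 genes called in KO-1 against control changed direction except 2 under quantile normalization. With KO-2 libraries left out, no trend, the replicate block, other filters or a minimum fold, the fold change of a gene stays the same. Its direction could not turn in those alternatives. The rule for named genes picked mostly by small p or large change in these same data, which favours kept calls. Of 180 genes that the rule for named genes picked and that were called, 0 lost the call with the 4 control and KO-1 libraries only, without either KO-2 library, under quantile normalization, with log2(CPM + 1), without a filter, or with voom weights on recovered reads; 170 were tested at a mean log2 CPM of at least 2, and 0 of them lost it. The call was lost by 2 with library medians set equal, 14 without a mean-variance trend, 9 to 18 without a control or KO-1 library, and 61 against a minimum log2 fold change of 0.25.

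The count of 4089 calls (2005 higher, 2084 lower) became 6259 (3099 and 3160) with the 4 libraries only, 2345 (1112 and 1233) without a trend and 838 (432 and 406) against the minimum fold. With 1 library left out it ranged from 1694 to 6255, with 878 to 3107 higher and 815 to 3152 lower; the high ends are the fits without a KO-2 library. For KO-2 minus KO-1, 157 calls became 48 with the 4 libraries only, 1 without a trend and 0 to 3170 with 1 library left out. The cause of these changes was not tested.

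With 1 library left out, PECAM1 (-0.15) ranged from -0.40 to 0.10 and turned without KO-1 replicate 1, and TIMP3 (0.10) ranged from -0.043 to 0.24 and turned without KO-1 replicate 2; neither was called. Replicate numbers are shared between groups in the labels only: deviations of same-numbered libraries correlated at -0.05 for control and KO-1, and at 0.04 and -0.04 for the other pairs. With the replicate block there were 3829 calls (1876 higher, 1953 lower), and 105 for KO-2 minus KO-1.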

Other observations

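Lists of translation and energy metabolism had medians between -0.02 and 0.17. Over all genes tested, 14.6% were higher and 15.1% lower in the main fit, beside which the list counts of that fit stand. Calls over all genes changed too in the other fits. Of 82 cytosolic ribosomal proteins, 36 were higher in KO-1 and 1 lower, with a median of 0.17, but only 8, 7, 5 and 9 were higher without control replicate 1, control replicate 2, KO-1 replicate 1 and KO-1 replicate 2, and 5 without a mean-variance trend. RPS27L, a p53-induced relative of RPS27, went from log2 CPM values of 5.75 and 5.79 in control to 6.80 and 6.89 in KO-1 (log2 fold change 1.08 ± 0.08), RPS19 rose by 0.40 ± 0.05, and RPL27 fell by 0.66 ± 0.08. Counts in brackets below follow the same order of libraries left out. Of 76 mitochondrial ribosomal proteins, 3 were higher and 6 lower (0, 0, 1 and 2 higher and 5, 5, 5 and 6 lower), and MRPL24 (-0.62), MRPS25 (-0.59), MRPL1 (-0.54), MRPL37 (-0.47) and MRPS16 (-0.43) fell in every fit with a library left out. Of 80 nuclear genes of oxidative phosphorylation, 6 were higher and 10 lower (0, 1, 0 and 0 higher and 5, 6, 6 and 6 lower), which became 10 and 6 with library medians set equal; COX6B1 (-0.47), ATP5MC1 (-0.45), NDUFA10 (-0.40) and UQCRC1 (-0.37) fell in each of them. Of 41 proteasome genes, 3 were higher and 4 lower (2, 2, 2 and 2 higher and 1, 1, 1 and 1 lower), which became 5 and 2 with library medians set equal.

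In the Sm list, 6 of 20 genes were higher beside SNRPD2 and SNRPA (-0.58), which fell; with 1 library left out 0 or 1 was higher and 2 lower. Genes of ATF4 and amino acid synthesis were split, with 8 of 33 higher and 8 lower (5, 7, 4 and 6 higher and 2, 3, 2 and 3 lower; 8 and 4 with library medians set equal): SLC7A5 (0.53) and DDIT4 (0.66) rose, and CBS (-0.67) and PYCR1 (-0.55) fell. HSPA5, the main chaperone of the endoplasmic reticulum, stood at 0.01 ± 0.04 (adjusted p = 0.847). The main fit counts of the lists of this paragraph stand beside 14.6% higher and 15.1% lower over all genes. In cholesterol synthesis MSMO1 (0.47) rose and LSS (-0.73) fell; 5 of 26 were higher and 7 lower (3, 3, 3 and 2 higher and 2, 5, 2 and 3 lower), which became 7 and 4 with library medians set equal. In the lysosome list 4 of 34 were higher and 5 lower (2, 2, 3 and 2 higher and 2, 3, 2 and 3 lower), which became 6 and 5 with library medians set equal; LAMP1 (0.36), a lysosomal membrane protein, rose, and ASAH1 (-0.46), acid ceramidase, fell. In the Wnt and Notch list 8 of 31 were higher and 4 lower (3, 3, 1 and 4 higher and 0, 3, 3 and 1 lower), and LRP6 (0.40) was the one member called in all fits with a library left out. Of 27 genes of the unfolded protein response, 5 were higher and 2 lower (3, 3, 2 and 3 higher and 0, 2, 1 and 0 lower), among them DNAJB9 (0.55) and HERPUD1 (0.34), which rose.

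Of 231 genes with solute carrier names, 35 were higher and 42 lower (18, 20, 17 and 21 higher and 17, 17, 21 and 18 lower), beside 29.7% called of all genes, and these became 44 and 30 with library medians set equal. The glucose transporter relative SLC2A12 rose by 1.37 ± 0.21 and the monoamine and nucleoside carrier SLC29A4 fell by 1.02 ± 0.14. Of 452 zinc finger ZNF genes, 52 were higher and 32 lower (16, 19, 19 and 23 higher and 8, 7, 11 and 11 lower). Chromosome medians of the log2 fold change ran from -0.09 on chromosome 22 (35 of 326 higher, 63 lower) and -0.07 on X (39 of 442 higher, 92 lower) to 0.06 on chromosome 18. Over 11943 runs of 50 neighbouring tested genes, the lowest median was -0.23, on chromosome 9, and the highest 0.19, on chromosome 6.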
